A study of Mus musculus with 15 samples.

Results

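Heat shock proteins and chaperonins, the enzymes that fold, refold and hold other proteins, were described across 3 RNA-seq libraries of fetal mouse preSertoli cells. The members were the genes whose symbol marks them as a heat shock protein (Hsp90, Hspa, Hspb, Hspd1, Hspe1, Hsph1), a numbered J protein (Dnaja, Dnajb, Dnajc) or a subunit of the cytosolic chaperonin (Tcp1, Cct2 to Cct8). This rule used names and no measured value, and it found 75 of the 27697 gene symbols in the table. Tcp1, Cct7 and Hspa4l have no row under those symbols and were not analysed here. Dnajc7 has none either, but its RefSeq synonym mDj11 has a row, at 176, 169 and 185 counts per 1000000 (mean 176.4), which the symbol rule does not match and which is in no count of members. PreSertoli cells enclose the germ cells of the developing testis cords and later mature into Sertoli cells. The RNA came from preSertoli cells sorted by flow cytometry at E15.5 (E, embryonic day) from C57BL/6J x CD-1 (F1) fetal testes. About 165 embryos were pooled into 3 libraries with about equal numbers of cells. No treatment is named, and the RNA labels do not state the reporter or gate used for the sort. The series also holds 8 DNase-seq samples and H3K27ac ChIP-seq with inputs, not used here.

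Chaperones bind unfolded stretches of other proteins and release them in cycles driven by ATP. In this cycle, J proteins deliver clients to Hsp70 and trigger its ATPase, exchange factors such as the Hsp110 proteins reset it, and Hsp90 acts on clients that are close to their folded state. Chaperonins are barrels in which a protein folds alone, and small heat shock proteins hold unfolded proteins without ATP. Most families have a constitutive gene, a gene that heat shock factor 1 turns on under stress, and a gene known from testicular germ cells, where meiotic and later cells use isoforms of their own.

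The libraries held 47766422, 56007688 and 51725096 expected counts, which are read counts that the program RSEM assigns to genes, in fractions where a read matches several. Levels are given in counts per 1000000 counts of a library (CPM), as mean ± SD over 3 libraries. Pairs of libraries correlated at r = 0.993 to 0.996 across expressed genes, which are not independent replicates. Levels of different genes are compared as reads, not divided by transcript length, so a longer transcript gives more reads per molecule. In bulk RNA, fewer cells that use a gene and less RNA per cell cannot be told apart. All 8 Sertoli markers (such as Amh, Sox9 and Dhh) were expressed, with a summed level of 7331, 7959 and 6866 CPM in libraries 1, 2 and 3. Fetal Leydig markers, 5 of 5 expressed, summed to 1675, 1990.2 and 1215 CPM, so RNA of that cell type's genes was also present.

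Sequences from gene starts are shown first for the members that the account of stress-inducible and endoplasmic reticulum (ER) chaperones returns to. Only windows that hold an element searched for are shown. The heat shock element, which heat shock factors bind, is a run of inverted GAA units. It was searched on both strands in a 3-unit form, GAA, any 2 bases, TTC, any 2 bases and GAA. The 2-unit form was GAA, any 2 bases and TTC, or TTC, any 2 bases and GAA, which every 3-unit match contains. The windows were the RefSeq promoters of build GRCm38.p6, from 250 bases before to 50 after each start, a different build from the one the reads were mapped to. Of the 75 members, 61 matched a window. The 3-unit letters were found in 4 of these 61 genes (6.56%), beside 0.662% of all 27025 genes with a window. Of the 4, only Hsph1 is in the stress-inducible class listed below. Hspe1 and Hspd1, the co-chaperonin and chaperonin of mitochondria, lie head to head, and the windows of both hold the same stretch. The stretch of Hspe1 and that of Hsph1, an Hsp110 exchange factor, are given as 30 bases. That of Dnajb6, a J protein, is given as the 120 bases before 1 of its starts. Capitals mark the element.
Hspe1, chr1:55088053-55088082, plus strand: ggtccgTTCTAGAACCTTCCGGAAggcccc
Hsph1, chr5:149636279-149636308, minus strand: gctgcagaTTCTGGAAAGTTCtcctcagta
Dnajb6, chr5:29735778-29735897, plus strand: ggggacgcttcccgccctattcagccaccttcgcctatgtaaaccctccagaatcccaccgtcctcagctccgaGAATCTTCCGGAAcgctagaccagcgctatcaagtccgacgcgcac
In Hspe1 overlapping copies run together, in Hsph1 the element lies after the start, and in Dnajb6 it lies before it. Dnajb6 has more than 1 start, and its element begins 46 or 127 bases before the start, depending on which is taken. The stretch shown uses the start at 46 bases. With only the bases before the start searched, 3 of 61 member genes (4.92%) held the 3-unit letters, beside 0.514% of all genes.

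The 2-unit letters were found in 18 of 61 member genes (29.5%), beside 17.0% of all genes, so this shorter pattern is common. The 18 include the stress-inducible Hsph1, Hspa1a, Hspa1b, Hspb1 and Dnajb4. The stress-inducible Hsp90aa1 and Dnajb1 had neither form among the matches, and whether each had a window is not given here. Hspa1a and Hspa1b, neighbouring genes that encode the stress-inducible cytosolic Hsp70, are shown because their reads are hard to tell apart. Their windows were identical at 296 of 300 bases, and each holds 1 copy of the 2-unit letters at the same place. Hspb1, the stress-inducible small heat shock protein, holds 2 copies. Capitals mark the element.
Hspa1a, chr17:34972157-34972406, minus strand: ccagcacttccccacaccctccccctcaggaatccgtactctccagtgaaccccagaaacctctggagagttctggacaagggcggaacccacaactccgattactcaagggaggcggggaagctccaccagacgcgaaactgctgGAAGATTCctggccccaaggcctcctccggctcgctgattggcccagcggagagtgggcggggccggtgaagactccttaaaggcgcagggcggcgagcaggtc
Hspa1b, chr17:34959239-34959488, minus strand: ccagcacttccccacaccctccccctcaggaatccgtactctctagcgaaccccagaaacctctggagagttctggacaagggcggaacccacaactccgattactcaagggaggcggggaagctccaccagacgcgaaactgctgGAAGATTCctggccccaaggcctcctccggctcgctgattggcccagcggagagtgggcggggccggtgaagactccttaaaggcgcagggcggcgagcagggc
Hspb1, chr5:135887769-135887918, plus strand: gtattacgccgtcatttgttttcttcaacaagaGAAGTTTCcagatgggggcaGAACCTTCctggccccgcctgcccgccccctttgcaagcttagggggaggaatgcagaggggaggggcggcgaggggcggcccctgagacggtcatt
The ER stress element, CCAAT, any 9 bases and CCACG on either strand, is bound by the factors of the unfolded protein response. It was added to the search after the data were seen, and 3 of 61 member genes held it (4.92%), beside 0.137% of all genes. These were Hspa5, Hsp90b1 and Dnajc3, which encode the ER's Hsp70 (BiP), its Hsp90 (Grp94) and an ER J protein. Capitals mark the element.
Hspa5, chr2:34771970-34772089, plus strand: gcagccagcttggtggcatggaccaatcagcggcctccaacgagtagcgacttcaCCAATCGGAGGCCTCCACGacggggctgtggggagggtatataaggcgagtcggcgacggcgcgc
Hsp90b1, chr10:86705445-86705694, minus strand: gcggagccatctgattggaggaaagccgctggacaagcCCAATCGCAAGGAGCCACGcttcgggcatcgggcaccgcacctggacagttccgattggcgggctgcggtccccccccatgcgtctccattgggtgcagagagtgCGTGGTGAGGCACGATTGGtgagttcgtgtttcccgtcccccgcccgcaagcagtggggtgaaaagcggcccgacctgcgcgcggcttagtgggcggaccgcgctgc
Dnajc3, chr14:118937812-118937931, plus strand: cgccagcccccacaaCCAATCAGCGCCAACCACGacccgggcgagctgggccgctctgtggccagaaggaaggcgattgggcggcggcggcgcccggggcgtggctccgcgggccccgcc
The Hsp90b1 stretch holds 2 copies, 1 on each strand. A match is a description of letters, and a window without one says nothing about the factor.

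The chaperone genes as a set were widely expressed, and high levels were uneven between families. Of 75 members, 66 (88.0%) reached 1 CPM in all 3 libraries, beside 47.1% of all symbols and 63.5% of symbols with any read. A mean of 100 CPM or more was reached by 28 members (37.3%), beside 9.17% of all symbols. The median member stood at 46.9 CPM, beside 0.712 CPM over all symbols and 32.6 CPM over expressed symbols. The 42 J proteins had a median of 30.0 CPM and the 8 small heat shock genes 3.22 CPM. The 33 members other than J proteins had a median of 137 CPM. Together the members took 15383, 14288 and 15366 CPM in libraries 1, 2 and 3, a mean of 1.50% of all reads. Hsp90ab1 and Hspa8 alone, the constitutive cytosolic Hsp90 and Hsp70, took 37.6% ± 2.02 of the members' reads (SD, n = 3). Hsp90 genes took 36.4% of those reads, Hsp70 and Hsp110 genes 31.7%, J proteins 15.2%, the cytosolic chaperonin 10.2%, the mitochondrial chaperonin 4.86% and small heat shock proteins 1.66%.

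**Figure D1:**
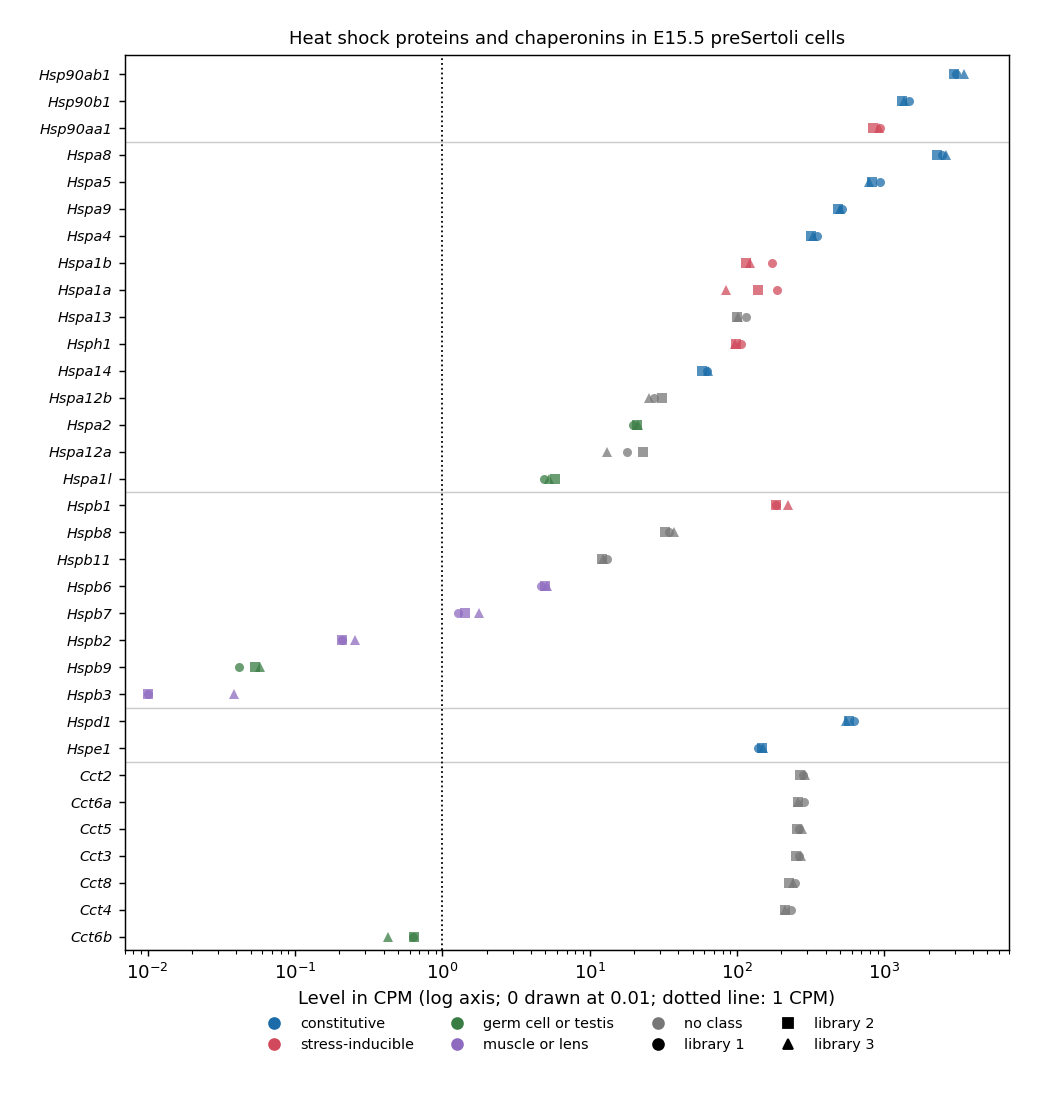
Level of each heat shock protein and chaperonin gene in the 3 preSertoli libraries, in CPM on a log axis, with 1 symbol per library (circle 1, square 2, triangle 3), colours for the isoform class and grey lines between families. Hsp90ab1 and Hspa8 lie farthest right, and Hspb2, Hspb3, Hspb9 and Cct6b lie left of 1 CPM.

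The 3 Hsp90 genes were all high. Hsp90ab1 was at 3055, 2988 and 3498 CPM in libraries 1, 2 and 3, the highest level of any member. Hsp90b1, the ER form, was at 1476, 1315 and 1363 CPM. Hsp90aa1, the stress-inducible cytosolic form, was at 931, 834 and 918 CPM. The values of the 3 genes did not overlap, and the order Hsp90ab1, Hsp90b1, Hsp90aa1 held in each library. Hsp90ab1 had 3.28, 3.58 and 3.81 times the reads of Hsp90aa1, a log2 ratio of 1.83 ± 0.11 (SD, n = 3). With 3 libraries an exact two-sided sign-flip permutation test cannot give a p below 0.25, so ratios are given with their spread and no test.

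All 13 genes of the Hsp70 and Hsp110 family were expressed, beside 47.1% of all symbols, over a range from 5.36 to 2459 CPM. Hspa8 was at 2481, 2275 and 2622 CPM. Hspa5 was at 929, 828 and 790.2 CPM, and Hspa9, the mitochondrial Hsp70 (mortalin), at 516, 488 and 500.1 CPM. Cytosol, ER and mitochondria thus each had an Hsp70 gene at 488 CPM or more in every library. Hspa4, a constitutive Hsp110 exchange factor, was at 348, 318 and 330.3 CPM, and Hsph1, its stress-inducible relative, at 107, 98.8 and 97.3 CPM. Hspa4 had 3.26, 3.22 and 3.40 times the reads of Hsph1, the ratio with the smallest spread among the pairs (log2 1.72 ± 0.04). Hspa13, a divergent Hsp70 of microsomes, was at 105 ± 7.82 CPM (SD, n = 3) and Hspa14, a ribosome-associated Hsp70, at 61.3 ± 3.16 CPM. A second row of Hspa14 stood at 15.1 ± 0.678 CPM and was not added. Hspa12b, a distant relative known from endothelial cells, was at 28.0 ± 2.99 CPM, while endothelial markers (3 of 4 expressed) summed to 30.6, 30.5 and 28.7 CPM. Their part in the Hspa12b level was not tested.

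The stress-inducible cytosolic Hsp70 genes were well below Hspa8 and differed more between libraries than any other member above 50 CPM. Hspa1a was at 186, 138 and 84.4 CPM in libraries 1, 2 and 3. Hspa1b was at 173, 116 and 123 CPM. Library 1 was the highest for both genes, while the lowest was library 3 for Hspa1a and library 2 for Hspa1b. Hspa8 had 13.4, 16.4 and 31.1 times the reads of Hspa1a (log2 4.25 ± 0.63, SD, n = 3) and 14.3, 19.7 and 21.4 times those of Hspa1b (log2 4.19 ± 0.30). Hspa1a against Hspa1b gave 1.07, 1.20 and 0.687, so their order was not the same in the 3 libraries, at a log2 ratio of -0.06 ± 0.42. Expected counts were whole in 43 of the 66 expressed members, beside 59.9% of expressed symbols. The 23 others, in which some reads were shared between genes, include Hsp90ab1, Hspa8, Hsp90b1, Hspa4, Dnaja1, Cct8 and Dnajb1 as well as Hspa1a and Hspa1b, so these levels and their ratios carry that uncertainty. For Hspa1a and Hspa1b the split between the near-identical copies is uncertain. Their sum was 359, 254 and 207 CPM, again highest in library 1.

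**Figure D2:**
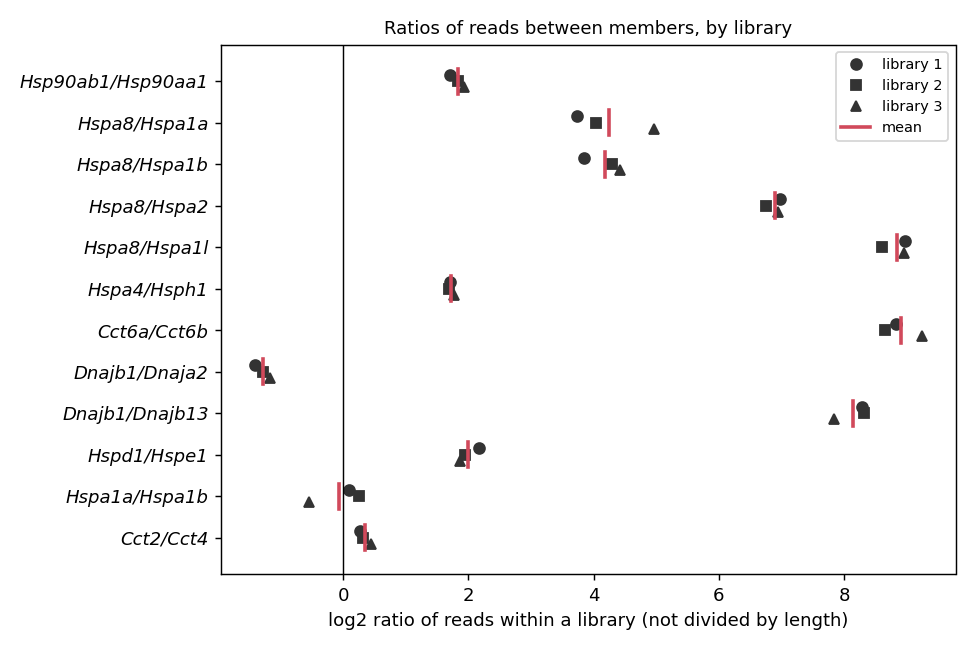
Log2 ratio of reads between paired genes of a family, with 1 black symbol per library (circle 1, square 2, triangle 3) and a red bar at the mean, reads not divided by length. Ratios above 0 mean more reads of the first gene, and the ratios of Hspa8 to Hspa1a spread most.

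The 2 germ cell members of the family were lower still. Hspa2, which testicular germ cells use in meiosis, was at 19.7, 21.0 and 21.2 CPM, and Hspa1l, known from spermatids, at 4.92, 5.86 and 5.29 CPM. Hspa8 had 126, 108 and 124 times the reads of Hspa2 (log2 6.90 ± 0.12) and 505, 388 and 496 times those of Hspa1l (log2 8.84 ± 0.21). Hspa1l, a neighbour of Hspa1a, also shared reads with other genes, as Hspa8 did. Germ cell markers (7 of 8 expressed, such as Ddx4 and Dazl) summed to 69.0, 50.3 and 57.7 CPM. Meiotic and later markers (2 of 6 expressed) summed to 7.06, 5.92 and 5.84 CPM, with Prm2 at 0 counts. The part of germ cell RNA in these levels was not tested.

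Of the 8 small heat shock genes 5 were expressed, and 1 of them held most of the reads. This share of 62.5% is near the 63.5% of symbols with any read, beside 47.1% of all symbols. Hspb1 was at 183, 183 and 221 CPM, high in library 3. Hspb8, which works with the co-chaperone Bag3, was at 34.8 ± 2.58 CPM (SD, n = 3). Hspb11, a subunit of intraflagellar transport rather than a classical chaperone, was at 12.5 ± 0.486 CPM. Hspb6 and Hspb7, known from muscle and heart, were at 4.94 ± 0.218 and 1.49 ± 0.263 CPM. Hspb2, also a muscle gene, was at 0.225 CPM. Hspb9, a testis gene, had 2, 3 and 3 counts, and Hspb3, a muscle gene, had 0, 0 and 2. Both were at or under the 3 counts that a count of 0 allows, which is 0.0536 to 0.0628 CPM here (counting error only). The lens and muscle crystallins, relatives outside the symbol rule, were also low, with Cryab at 2.25 CPM and Cryaa at 0.0199 CPM.

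Both chaperonins were expressed. Hspd1 (Hsp60), the barrel of the mitochondrial chaperonin, was at 628, 573 and 546 CPM, and Hspe1 (Hsp10), its lid, at 140, 149 and 150.2 CPM. Hspd1 had 4.49, 3.85 and 3.64 times the reads of Hspe1 (log2 1.99 ± 0.16), which is not a molar ratio because the Hspd1 transcript codes for a much larger protein. The 2 genes share the stretch of heat shock element letters shown above. Library 1 was highest for Hspd1 and lowest for Hspe1.

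The cytosolic chaperonin, a ring of 8 different subunits that folds actin and tubulin, had 6 subunit genes with a row, besides Cct6b. Their means lay close together, from Cct2 at 279 ± 11.8 CPM (SD, n = 3), through Cct6a at 268 ± 16.1, Cct5 at 265 ± 11.0, Cct3 at 264 ± 10.2 and Cct8 at 237 ± 11.7, to Cct4 at 219 ± 11.5 CPM. The highest subunit had 1.23, 1.25 and 1.37 times the reads of the lowest in libraries 1, 2 and 3. Cct6a, Cct5 and Cct3 did not differ beyond their spread. Cct6b, a testis form of the Cct6 subunit, had 30, 36 and 22 counts (0.628, 0.643 and 0.425 CPM). Cct6a had 457, 404 and 607 times its reads (log2 8.91 ± 0.30).

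J proteins made up 42 of the members, and 37 of these were expressed (88.1%, beside 47.1% of all symbols). Among the Dnaja genes, partners of cytosolic and mitochondrial Hsp70, Dnaja1 stood at 307 ± 16.3 CPM (SD, n = 3) and Dnaja2 at 204 ± 9.90 CPM. Dnaja3, the mitochondrial form, was at 56.6, 55.8 and 57.1 CPM, the steadiest of all expressed members (coefficient of variation, CV, 1.11%). Dnaja4 was at 11.6 ± 0.859 CPM. Among the 13 Dnajb genes 10 were expressed, led by Dnajb6 at 105 ± 1.84 CPM and Dnajb11, an ER partner of BiP, at 97.6 ± 4.04 CPM. Dnajb1, the stress-inducible Hsp40, was at 78.9, 79.5 and 93.2 CPM, high in library 3 as Hspb1 was. It had 0.376, 0.413 and 0.445 times the reads of Dnaja2 (log2 -1.29 ± 0.12). Dnajb12, an ER membrane form, was at 46.9 ± 1.14 CPM. Dnajb4, a heat-inducible relative of Dnajb1, was at 42.4, 40.5 and 42.3 CPM. Dnajb9, Dnajb2, Dnajb14 and Dnajb5 lay between 5.55 and 33.7 CPM.

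The 4 testis J proteins were among the lowest members, and 1 had no reads. Dnajb3 was at 1.47, 1.62 and 1.31 CPM, above 1 CPM in each library, unlike the other three. Dnajb13, a protein of sperm and ciliary axonemes, had 12, 14 and 21 counts, so Dnajb1 had 314, 318 and 229 times its reads (log2 8.15 ± 0.27). Dnajb7 had 5, 7 and 10 counts, and Dnajb8 had 0 counts in every library.

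Dnajc genes, which mostly have specialised sites, numbered 25, of which 23 were expressed (92.0%, beside 47.1% of all symbols). The highest matched by symbol was Dnajc5, the cysteine string protein of secretory vesicles, at 179, 174 and 174 CPM, within the range of mDj11 (Dnajc7). Then followed Dnajc10, an ER J protein with disulfide reductase activity, at 128 ± 9.27 CPM (SD, n = 3), and Dnajc14 at 112 ± 5.06 CPM. Dnajc13, an endosomal protein, was at 105 ± 10.4 CPM and Dnajc11, a mitochondrial membrane protein, at 101 ± 4.24 CPM. The other 18 expressed Dnajc genes lay between 5.32 CPM (Dnajc4) and 97.7 CPM (Dnajc8). The range of Dnajc13 overlapped those of Dnajc14 and Dnajc11. Dnajc3, one of the genes with an ER stress element shown above, was at 92.8, 78.5 and 79.3 CPM. Just under 1 CPM in at least 1 library were Dnajc6 (auxilin, a clathrin-uncoating protein of neurons) at 0.921, 0.964 and 1.06 CPM and Dnajc22 at 0.837, 0.893 and 1.01 CPM. These were named after their values were seen.

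**Figure D3:**
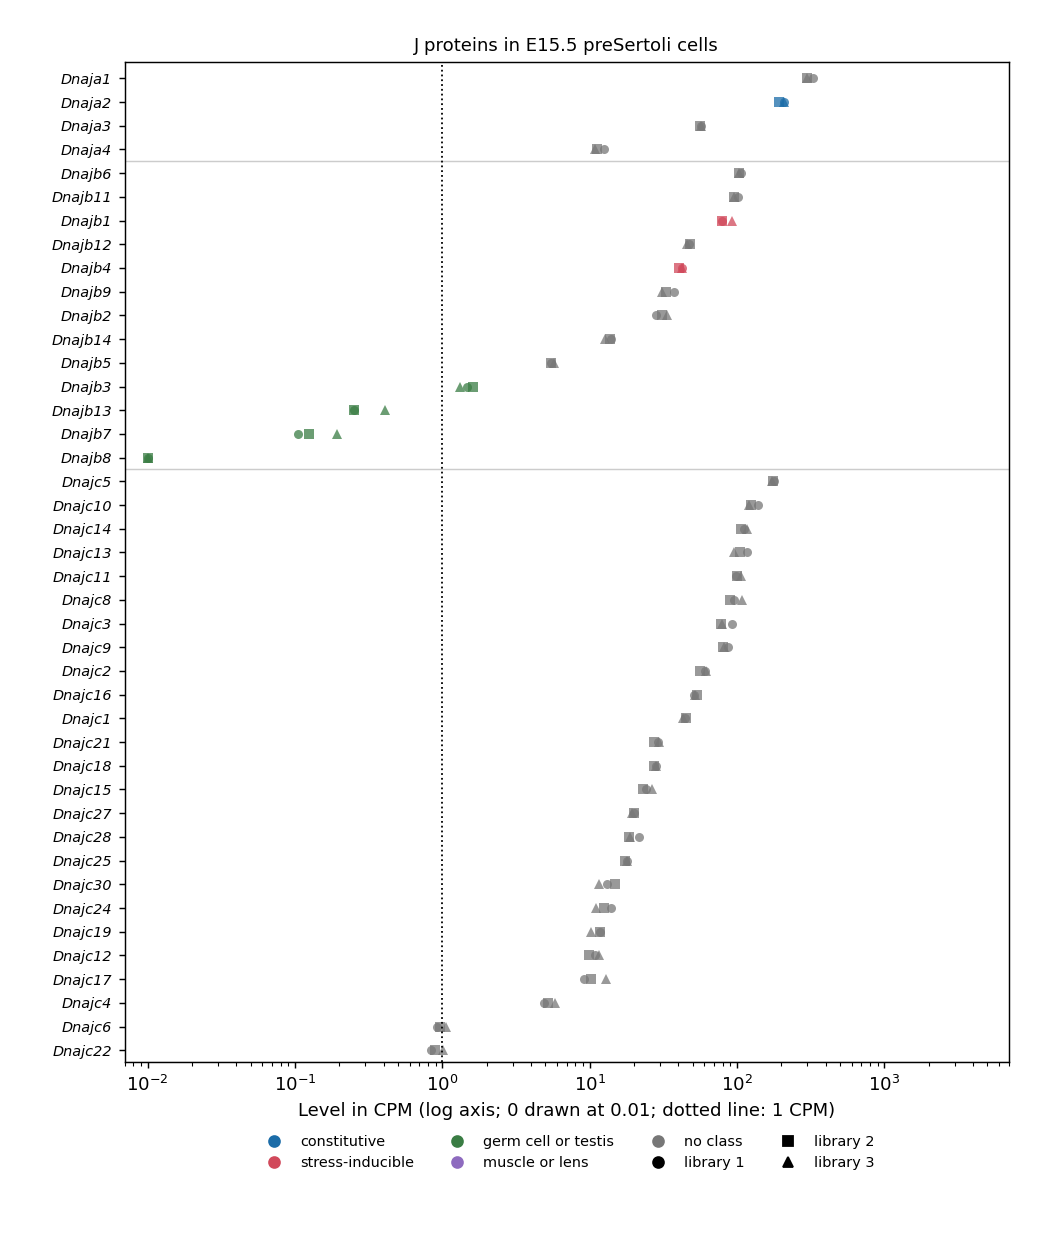
Level of each J protein gene in the 3 libraries, in CPM on a log axis, with 1 symbol per library and colours for the isoform class (0 drawn at 0.01). Dnaja1, Dnaja2 and Dnajc5 are highest, and Dnajb8, with 0 counts, is lowest.

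Sorted by isoform class, the constitutive genes had the most reads and the germ cell genes few. The 10 constitutive genes (Hsp90ab1, Hspa8, Hspa4, Hspa14, Hspa5, Hsp90b1, Hspa9, Hspd1, Hspe1 and Dnaja2) were all expressed, at a median of 542 CPM and a range of 61.3 to 3180.4 CPM. The 7 stress-inducible genes (Hspa1a, Hspa1b, Hsp90aa1, Hsph1, Dnajb1, Hspb1 and Dnajb4) were also all expressed, at a median of 136 CPM and a range of 41.7 to 895 CPM. These 2 ranges overlap, and both medians lie above the 32.6 CPM of expressed symbols. Of the 8 germ cell or testis genes with a row 3 were expressed, beside 47.1% of all symbols. The median of the 8 was 0.434 CPM, below the 0.712 CPM of all symbols, and the highest was Hspa2 at 20.6 CPM. No germ cell gene reached the lowest stress-inducible gene, Dnajb4. Of the 4 muscle genes 2 were expressed, near the share of all symbols, at a median of 0.859 CPM. Summed over a class, constitutive genes took 9846, 9182 and 10073 CPM, stress-inducible genes 1701, 1490 and 1579 CPM, and germ cell genes 27.1, 29.6 and 28.9 CPM. Each library thus had the same order of the 3 sums. The size of the gap between constitutive and stress-inducible genes depends on how the classes were listed. Hspa5, Hsp90b1, Hspd1 and Hspe1, at 849, 1385, 582 and 146 CPM, were listed as constitutive although their windows hold stress element letters. Sums with these genes in another class were not computed.

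Apart from the heat shock factors, most listed genes that act around the chaperone cycle were also expressed. The counts that follow stand beside 47.1% of all symbols and 63.5% of symbols with any read. Of 5 heat shock factors 2 were expressed, Hsf1, the main stress-activated factor, at 49.2, 56.5 and 59.99 CPM and Hsf2, a factor known from testis and brain development, at 45.6, 40.2 and 39.4 CPM. Hsf3 was at 0.126, Hsf4 at 0.0194 and Hsf5 at 0.243 CPM. Of 14 Hsp90 co-chaperones 13 were expressed, at a median of 93.5 CPM. They were led by Fkbp5 at 434 and Fkbp4 at 289 CPM, immunophilins that sit on Hsp90 with steroid receptors, and by Stip1 (Hop) at 223 CPM, which links Hsp70 to Hsp90. The lowest was Unc45b, a muscle myosin chaperone, at 0.331 CPM. All 13 Hsp70 co-chaperones with a row were expressed (median 46.9 CPM), led by the ER exchange factor Hyou1 at 214 CPM, St13 (Hip) at 177 CPM and Bag1 at 117 CPM, with Hspbap1 lowest at 9.14 CPM. All 8 chaperonin partners with a row were expressed (median 47.2 CPM), led by the prefoldin subunit Pfdn5 at 79.6 CPM, Pdcl at 71.2 CPM and the prefoldin subunit Vbp1 at 55.0 CPM, with Pfdn4 lowest at 16.0 CPM. All 13 ER folding genes were expressed (median 271 CPM). Calr, the lectin chaperone calreticulin, stood at 1050.1 CPM, its partner oxidoreductase Pdia3 at 739 CPM and the collagen chaperone Serpinh1 at 649 CPM, while Ddit3 (Chop), which prolonged ER stress induces, was lowest at 9.25 CPM.

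Most members differed little between libraries, as did most expressed symbols. The median CV of the 66 expressed members was 5.60%, beside 6.75% of 13036 expressed symbols. A CV of 20% or more, a limit set after the data were seen, was reached by 3 members (4.55%), beside 6.27% of expressed symbols. At a mean of 10 CPM or more, the same 3 were 5.00% of 60 members, beside 2.41% of symbols. The 3 members were Hspa1a (CV 37.2%), Hspa12a (28.1%) and Hspa1b (22.9%). Hspa12a, a distant Hsp70 relative, was at 18.0, 23.2 and 13.03 CPM, highest in library 2. Hspa1b rests on library 1, without which its CV was 4.25%, and Hspa12a had 17.9% without library 3. Hspa1a kept 20.6% or more with any 1 library left out, though 53.0% without library 2. Without library 2, 5 members reached 20% (7.58%, beside 6.85% of expressed symbols), the added ones being Dnajc17 and Hspb7. Without library 1 it was 2 members (3.03%, beside 7.92%), and without library 3 also 2 (3.03%, beside 4.28%).

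**Figure D4:**
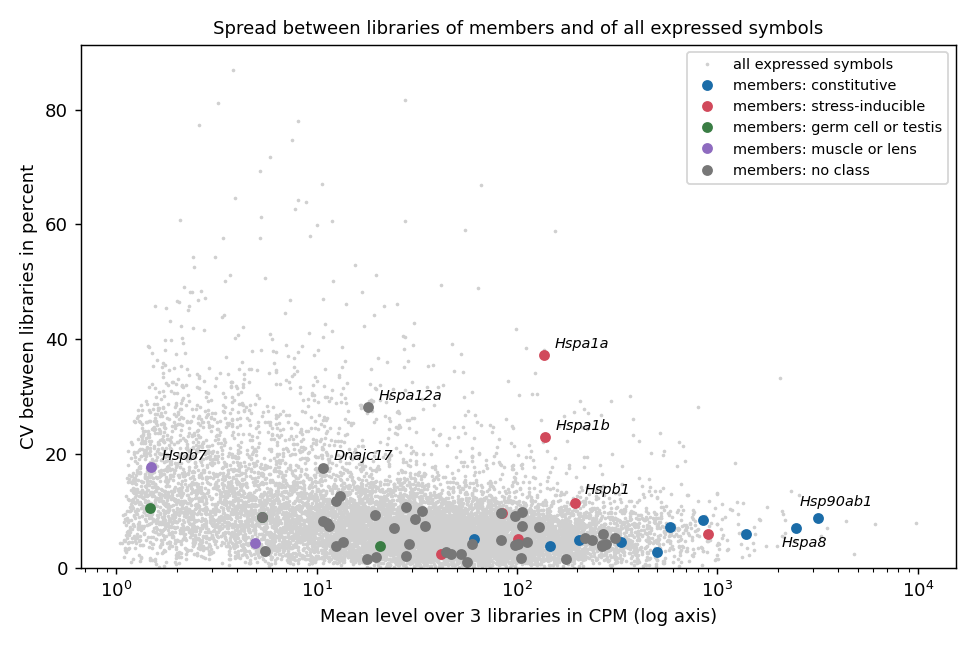
CV between the 3 libraries (percent) of each expressed member (large points, coloured by isoform class) and of all expressed symbols (small grey points) against the mean level (CPM, log axis). Hspa1a, Hspa1b and Hspa12a lie above 20%, and the median of 66 members was 5.60%.

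Marker lists of other cells also differed between the libraries. Fetal Leydig markers had 1675, 1990.2 and 1215 CPM, and peritubular and interstitial markers (3 of 3 with a row) 187, 208 and 123 CPM. Blood and macrophage markers (2 of 4 expressed) had 22.3, 33.5 and 22.5 CPM. Immediate-early genes, a list of 7 (such as Fos, Jun and Egr1) added after the data were seen, had 1068, 1268 and 812 CPM, and all 7 were expressed. The sums of these lists, blood markers apart, the sum of the Sertoli markers and Hspa12a had the order library 2, 1, 3, whereas Hspa1a had 1, 2, 3 and Hspa1b 1, 3, 2. Over all expressed symbols these orders are common, at 18.9%, 18.6% and 16.0%. The sums of endothelial and meiotic markers also had the order 1, 2, 3 and that of germ cell markers 1, 3, 2. The endothelial sum hardly differed between libraries 1 and 2 (30.56 and 30.54 CPM). Single genes did not always follow their sum. Among Sertoli markers, Amh (2167, 2660 and 1319 CPM), Sox9, Sox8 and Dhh had 2, 1, 3. Clu (2980, 3069 and 3467 CPM), Gata4 and Dmrt1 had 3, 2, 1, and Wt1 had 1, 3, 2. The immediate-early genes Fos and Dusp1 and the peritubular gene Myh11 also differed from their sums. Neither expressed meiotic marker had the order of its sum (Sycp1 2, 1, 3 and Sycp3 1, 3, 2). Pecam1 (3, 1, 2) and Tie1 (2, 1, 3) differed from the endothelial sum. Dppa3 (1, 2, 3), Tdrd9 and Nanos2 (each 3, 1, 2) differed from the germ cell sum. The remaining endothelial and germ cell markers had the order of their sums. Of the other stress-inducible genes, Hsp90aa1, Hsph1 and Dnajb4 were highest in library 1, and Hspb1 and Dnajb1 in library 3. The part of these lists in the spread of Hspa1a, Hspa1b and Hspa12a was not tested.

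**Figure D5:**
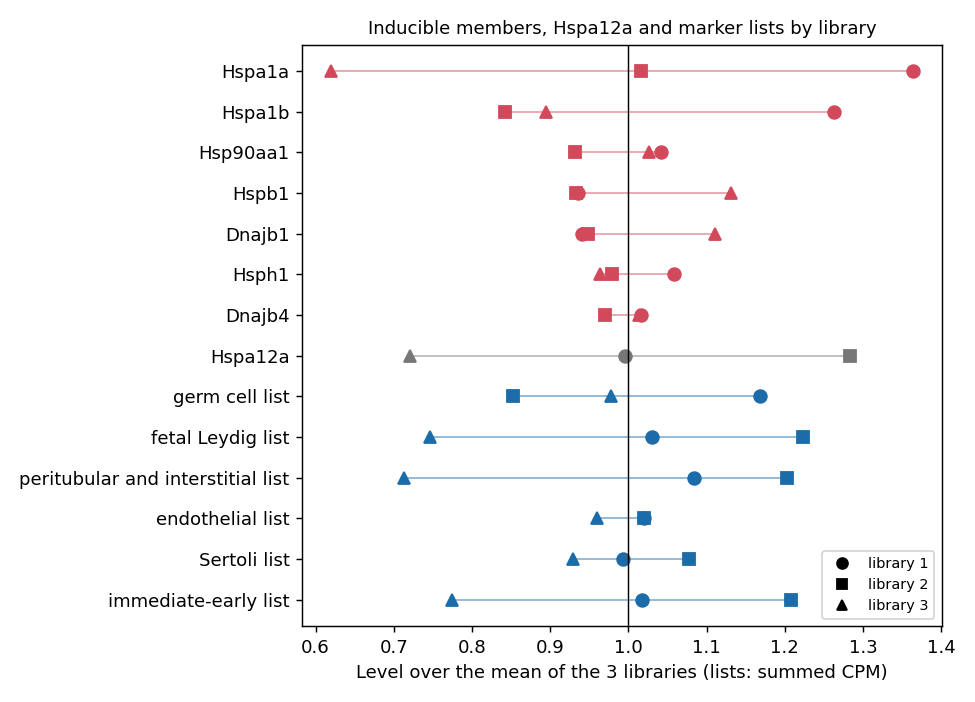
Level of each stress-inducible member and of summed marker lists in the 3 libraries, and of Hspa12a, divided by the mean of the 3 libraries (circle 1, square 2, triangle 3). Hspa1a and Hspa1b are highest in library 1, whereas the Leydig, interstitial and immediate-early sums are highest in library 2.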

How the data were processed

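RNA-seq was measured in 3 libraries of sorted preSertoli cells, each called a biological replicate in the labels and pooled from embryos. Per the submitters' processing notes, CASAVA 1.8.2, Bowtie 0.12.7 and RSEM 1.2.0 were used with build mm9. The gene annotation is not given in the sources used here. The values the authors deposited are square roots of expected counts divided by a constant per library, which the values show to be the library's 75th percentile. Squaring and multiplying by that constant gave expected counts to whole hundredths (tolerance 0.05) for 100% of values. From these, CPM was computed over all rows, with Python 3.11.15, numpy 2.4.6, pandas 2.3.3 and matplotlib 3.10.9. Of rows that share a symbol, that of highest mean was kept, and 426 were exact repeats. The columns carry numbers only and were treated as 3 replicates of 1 group, so no group comparison exists. Expected counts were not whole in 24 of 74 members with any read, where reads are shared between genes.

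Members and lists were chosen with earlier results of these data known. The named genes were every heat shock protein and chaperonin, the 5 highest Dnaja, Dnajb and Dnajc genes (all 4 for Dnaja), every gene of an isoform class, every heat shock factor, and the 3 highest and the lowest of each pathway list. Levels per kilobase were planned, but no transcript lengths of the files' build were at hand, so reads were compared undivided. For the same reason DNase and H3K27ac lists were not used here. Promoter letters came from RefSeq (GRCm38.p6). The recovery of expected counts was tested on simulated data, and the other steps were not. Alternatives changed the scaling, the CPM minimum, the pseudocount, repeated rows, the promoter window and the libraries included.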

Additional observations from a re-analysis of the deposited data

How the results depend on the processing

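No direction reversed under any alternative run, but the ratio of Hspa1a to Hspa1b was not among the values tried. Its log2 values were 0.0995, 0.260 and -0.541 in libraries 1, 2 and 3, so its direction depends on the libraries included. Of the values that answer a comparison, 78 of the alternatives tried left them within their SD or, for counts, near the count reported, and 5 moved them. The 78 are not a measure of robustness, because many of them could not have moved. Leaving out 1 of 3 libraries cannot move a mean ratio by a full SD. Summing repeated rows changed no gene of a pair, and a count of 2 instead of 3 was still called near. With a pseudocount of 1 CPM the log2 ratios of reads shrank to 8.60 for Hspa8 over Hspa1l, 7.43 for Cct6a over Cct6b and 6.02 for Dnajb1 over Dnajb13, since the second gene of each is low. A CV limit of 15% gave 5 members (7.58%, beside 11.6% of expressed symbols) instead of 3, both limits chosen after the data were seen. Leaving out 1 library gave 2 to 5 members at 20%. Members expressed numbered 68 at a minimum of 0.5 CPM and 61 at 5 CPM, beside 13995 and 10823 of all symbols. The deposited scaling moved no member by more than 1.001-fold. All 296 alternatives for the levels of 74 genes stayed within the SD between libraries, which is no check of these levels. Leaving out 1 of 3 libraries cannot move a mean by a full SD, and the only other alternative was the deposited scaling. Depth limits Hspb3, Hspb9 and Dnajb8, which were at or under 3 counts in each library. No paired analysis was possible because there is 1 RNA group, and the ChIP and input libraries that share numbers have no values of their own here. Levels per kilobase and the overlap of gene starts with open chromatin were planned and not run.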
